A study of Mus musculus with 3 samples.

Results

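Potassium channel genes were examined in transcript libraries of mouse vestibular cells. The set holds the 89 protein-coding genes of the deposited table whose symbols start with Kcn, after 5 genes of endolymph potassium secretion (Kcne1, Kcnq1, Kcnj10, Kcnj13 and Kcnj16) were left out, and it stands among 57180 genes listed, 21608 of them protein-coding. The members were picked by name, with earlier results of these data known. They fall into 21 subfamilies, here set in 7 structural classes. The libraries came from wild-type mice (the labels give WT) and hold cells that looked like black balls in the vestibule, which senses balance. The labels call these cells macrophages, the series title speaks of melanocytes, and 18 cells from 9 mice were taken with 3 mice per group. There is 1 group with 3 libraries and no control group, so values are compared between genes within the libraries. The labels do not tie a library to named animals, so the p-values cover the spread among the 3 libraries alone and that spread may be technical.

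Potassium channels let potassium ions cross a membrane, down their gradient, and so set the resting voltage of a cell and end its electrical signals. Each channel surrounds a pore whose narrowest part is the selectivity filter. In many of these channels it is lined by a short signature: threonine, any residue, glycine, an aromatic residue or leucine, glycine. In the inner ear, dark cells secrete potassium into the endolymph, hair cells take up potassium through their transduction channels, and basolateral potassium channels of hair cells let it out again.

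The codons of this signature are shown for the 5 members with a pore region that stood above 1 TPM in the test described below. Other members were not searched for it. TPM is a gene's level per length, scaled to the same total in each library. The sequences are coding strand, read from the GENCODE M21 transcript with the longest coding sequence (build GRCm38), 5′ to 3′. Capitals mark the 15 bases of the signature, with 15 coding bases on each side.
Kcna10: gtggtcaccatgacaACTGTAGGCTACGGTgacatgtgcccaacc
Kcnk1, match 1: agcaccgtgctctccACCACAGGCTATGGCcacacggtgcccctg
Kcnk1, match 2: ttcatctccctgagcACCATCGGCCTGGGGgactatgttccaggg
Kcnk2, match 1: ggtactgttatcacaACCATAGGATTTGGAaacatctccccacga
Kcnk2, match 2: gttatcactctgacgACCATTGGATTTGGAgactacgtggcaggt
Kcnv1: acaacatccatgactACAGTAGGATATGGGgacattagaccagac
Kcns3: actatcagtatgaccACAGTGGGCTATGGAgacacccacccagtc
Kcna10, Kcnv1 and Kcns3 held 1 match each, and the tandem-pore genes Kcnk1 and Kcnk2 held 2 each. Of the 15 signature bases of Kcna10, 11 were the same in Kcnv1 and 11 in Kcns3, and 8 to 10 were the same in the 4 matches of the tandem-pore genes.

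Each library held between 14095521 and 18460546 counts, so the limit that a count of 0 allows (3 counts, for counting error only) was 0.163, 0.199 and 0.213 in replicates 1, 2 and 3 as CPM, counts scaled to the library total. Of the markers of the labelled identities, all 12 for macrophages and 7 of 10 for melanocytes were called above 1 TPM in the test described below, beside 50.5% of all protein-coding genes tested. Markers of other cells were called too: all 10 for hair cells, 7 of 8 for supporting and non-sensory epithelium, 7 of 8 for fibroblasts, 5 of 6 for erythroid cells, 6 of 9 for Schwann cells and glia, 5 of 7 for dark and strial cells and 5 of 10 for neurons. The highest mean level was 4616 TPM among macrophage markers, 250.3 TPM among melanocyte markers, 16714 TPM among erythroid markers, 8131 TPM among Schwann cell and glia markers and 8005 TPM among fibroblast markers. Called were 3 of 6 markers of neutrophils, 2 of 8 of pericytes and smooth muscle and 2 of 7 of endothelium. A library is a single sum, so fewer cells of a type and less RNA per cell cannot be told apart, nor can the cells that gave a transcript.

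Most potassium channel genes were scarce, and a single gene, Kcna10, held most of their transcripts in replicates 1 and 2. Of the 89 members, 36 had a count in every library, 14 in 2 libraries, 20 in 1 library and 19 in none. Over all protein-coding genes listed, 61.4% had a count in every library and 24.9% had none. A gene was called above 1 TPM when limma's moderated test of log2(TPM + 1) over the 3 libraries, one-sided and Benjamini-Hochberg adjusted over the 27265 genes with a count, gave an adjusted p under 0.05. This called 7 of the 70 members with a count, or 10.0%, against 37.6% of all genes tested and 50.5% of protein-coding genes tested. Without replicate 1 it called 4 members, against 33.9% of all genes tested, and without replicates 2 and 3 it called 6 each, against 38.9% and 39.4%. At 1 TPM or more in all 3 libraries stood 12 of 89 members, against 46.0% of protein-coding genes listed. The median of the members' mean levels was 0.332 TPM, and that of all protein-coding genes 2.02 TPM. All 5 genes left out of the set were called above 1 TPM.

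The members' share stayed below that of all genes tested under each alternative. Calls were made for 14 members in CPM without gene length (43.4% of all genes tested) and for 12 in edgeR's quasi-likelihood test of the counts (45.5%). With CPM the level tested was set in CPM too, not in TPM. Among genes counted in all 3 libraries 11 of 36 members were called (64.7%). The counts were 9 with a pseudocount of 0.1 (40.7%), 9 without the mean-variance trend (41.2%), 8 with TMM scaling (37.8%), 8 with DESeq2 size factors (37.9%) and 7 with GENCODE transcript lengths (38.7%). They were 4 with a pseudocount of 5 (33.1%) and 4 without the filter on low counts (12.1%).

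**Figure D1:**
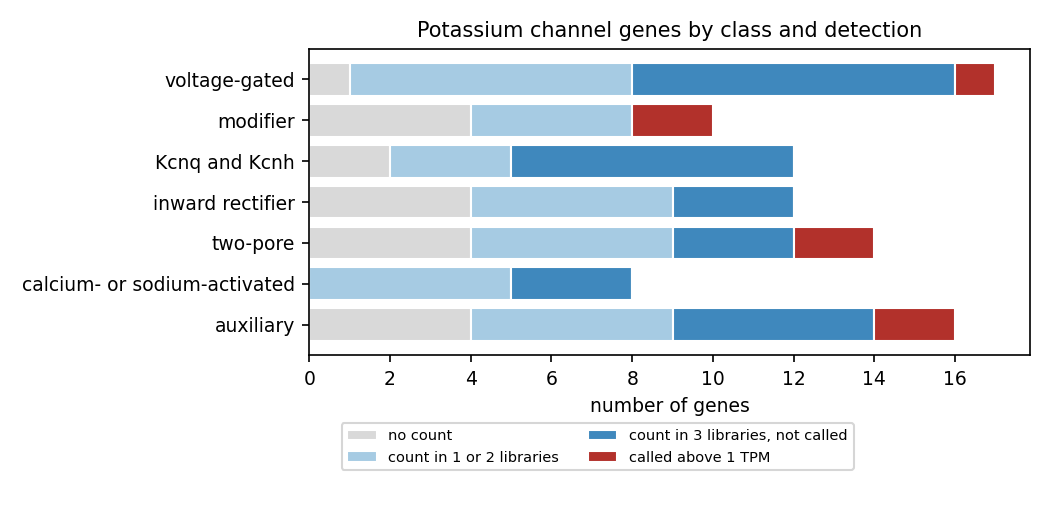
Number of genes (horizontal axis) in each structural class of the 89 potassium channel genes, split by the number of libraries with a count and by the call above 1 TPM (limma, adjusted p under 0.05). The called members are 1 voltage-gated, 2 modifier, 2 tandem-pore (labelled two-pore) and 2 auxiliary genes, and the largest class, the voltage-gated one, has 17 members.

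The summed level of the members was 461, 475 and 290 TPM in replicates 1, 2 and 3. Kcna10 made up 73.1%, 81.0% and 48.8% of it. Without Kcna10 the sum was 124, 90.2 and 149 TPM, so the order of the libraries changed: replicate 3 was lowest with Kcna10 and highest without it.

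Among the voltage-gated subfamilies Kcna, Kcnb, Kcnc and Kcnd, whose channels open when the membrane depolarises, Kcna10 was the one member called of 17. Kcna10 (ENSMUSG00000042861, chromosome 3, 107090372 to 107103037, GRCm39 as deposited, as for all positions below) encodes a voltage-gated pore subunit known from vestibular hair cells. It stood at 337, 385 and 141 TPM in replicates 1, 2 and 3, from 5675, 5904 and 2125 counts. Replicates 1 and 2 were close and replicate 3 was lower. The mean was 288 ± 129 TPM (SD, n = 3, as for all values below), a difference of 7.05 ± 0.78 from 1 TPM on the log2(TPM + 1) scale (limma, adjusted p = 2.86e-05), and it was above 1 TPM in 3 of 3 libraries. The 10 hair cell markers summed to 562, 408 and 361 TPM in replicates 1, 2 and 3. Of them 5 were highest in replicate 1, 3 in replicate 2 and 2 in replicate 3. None was at 0 in any library, but Gfi1 stood at 46.8, 55.4 and 0.622 TPM. Their part in the level of Kcna10 was not tested.

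The other Kcna genes stood far below Kcna10. Kcna4, which forms rapidly inactivating channels, stood at 2.56, 5.91 and 1.43 TPM (adjusted p = 0.117). Kcna2, a channel of myelinated axons, stood at 2.32, 1.52 and 3.42 TPM (adjusted p = 0.162). Both were at 1 TPM or more in every library, and both passed in edgeR's quasi-likelihood test of the counts (adjusted p = 0.0137 and 0.0107, with ranges over the alternatives of 0.0137 to 0.415 for Kcna4 and 0.00016 to 0.384 for Kcna2). Kcna4 and Kcna2 also passed in CPM, which leaves out gene length (limma, adjusted p = 0.0237 and 0.00016). Among genes counted in all 3 libraries both passed too (0.0443 and 0.0498), and without the mean-variance trend Kcna2 did (0.0425). The length implied by the counts and FPKM of Kcna2 is 17726 bp. Kcna1, another axonal channel, stood at 1.48, 0 and 2.08 TPM, with 87, 0 and 109 counts. Kcna3, the channel of T lymphocytes and macrophages, had 5, 5 and 2 counts, and Kcna6 stood at 0.095 to 0.193 TPM. Kcna7 had 2 counts in replicate 2 alone, and Kcna5 had none.

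Most counts of the Kcnc genes described here were in replicate 3. Kcnc1 encodes a fast channel that lets neurons fire at high rates, and it stood at 0.0471, 0.168 and 7.67 TPM, from 4, 13 and 581 counts. Kcnc2 and Kcnc4 had 150 and 12 counts in replicate 3 and none in replicates 1 and 2. Of the Kcnb genes, which give slow outward currents in many neurons, Kcnb2 stood at 0.172, 0.0315 and 1.60 TPM. These 4 genes were highest in replicate 3, and none was called.

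The Kcnd genes carry transient outward currents in neurons and heart, and 2 of the 3 were highest in replicate 3. Kcnd1 stood at 1.58, 2.70 and 0.701 TPM and was lowest in replicate 3. Kcnd2 had 23 counts in replicate 3 alone, and Kcnd3 had 0, 7 and 42 counts.

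**Figure D2:**
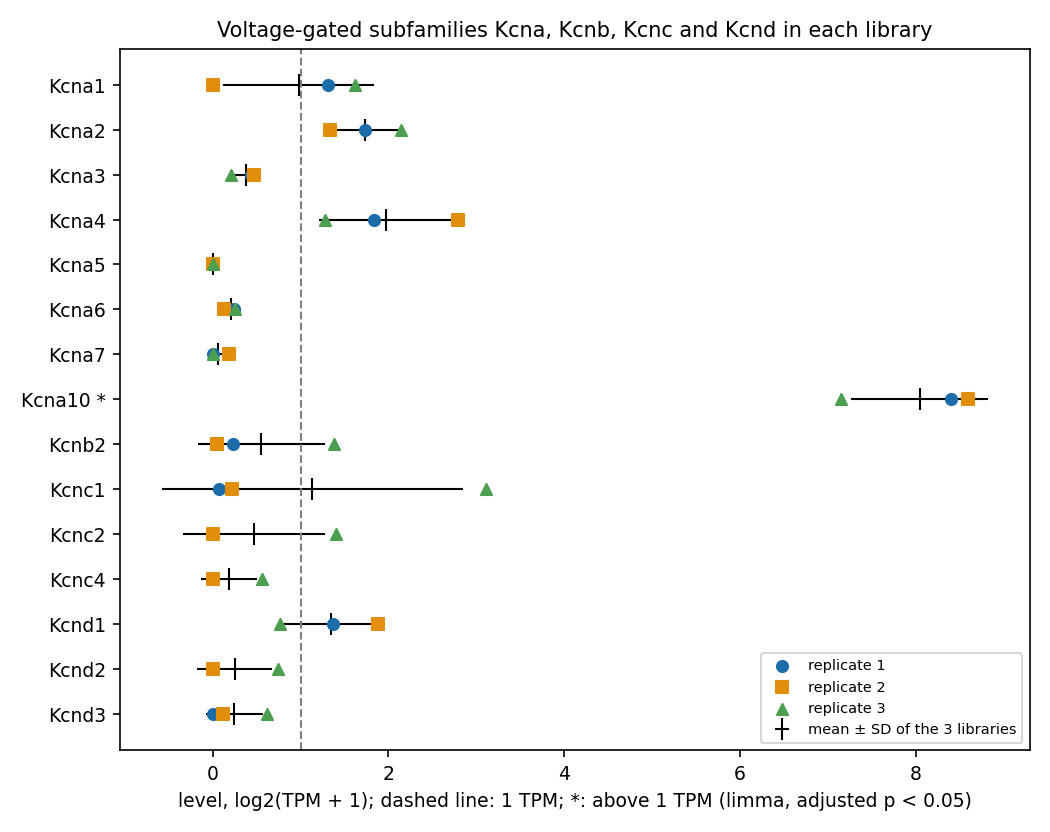
Level of 15 voltage-gated members in each library, as log2(TPM + 1) on the horizontal axis, with 1 symbol per library, the mean as a tick and the SD as a line (where symbols lie at 0 together, replicate 1 can be hidden). Kcna10 lies far to the right of the others, and the Kcnc genes shown lie at or near 0 in replicates 1 and 2 and higher in replicate 3.

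Over the whole set, 36 of the 70 members with a count (51.4%) were highest in replicate 3, 20 in replicate 2 and 14 in replicate 1. Of all protein-coding genes with a count, 33.8% were highest in replicate 3, 25.3% in replicate 2 and 40.8% in replicate 1. Among members with a count in every library, 21 of 36 (58.3%) were highest in replicate 3, against 33.9% of protein-coding genes with a count in every library. With TMM scaling the members' count was again 36, beside 30.3% of protein-coding genes. Genes are not replicates, and this share was not tested. The 10 neuron markers summed to 87.7, 78.6 and 346 TPM in replicates 1, 2 and 3, and 7 of the 10 were highest in replicate 3, where none was at 0. Rbfox3 was at 0 in replicate 1 and Prph in replicate 2. Highest in replicate 3 were also 5 of 6 erythroid, 7 of 12 macrophage, 4 of 7 dark and strial and 4 of 7 endothelial markers. The same held for 4 of 8 markers each of fibroblasts and of pericytes and smooth muscle. It held for 4 of 9 of Schwann cells and glia, 4 of 10 of melanocytes and 2 of 10 of hair cells. For neutrophils it was 0 of 6, and for supporting and non-sensory epithelium 0 of 8. The part of marker transcripts in the pattern of the channel genes was not tested.

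The list of 19 channel genes known from neurons had 1 member called, Kcnip4, beside 50.5% of protein-coding genes tested. Of its 18 counted members 12 were highest in replicate 3, beside 33.8% of protein-coding genes with a count. These 12 are among the 36 members given above. Its summed level was 13.4, 20.1 and 33.7 TPM in replicates 1, 2 and 3. In edgeR's test 3 of the 19 passed, beside 45.5% of all genes tested.

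Modifier subunits (Kcnf, Kcng, Kcns and Kcnv) form no working channel alone and change the properties of the Kcnb channels they join. Of the 10 members, 2 were called. Kcnv1 (ENSMUSG00000022342, chromosome 15, 44969680 to 44978316) stood at 11.7, 5.18 and 1.83 TPM, from 503, 202 and 70 counts, and its mean of 6.25 ± 5.04 TPM lay 1.60 ± 1.09 above 1 TPM on the log2(TPM + 1) scale (limma, adjusted p = 0.0352, 3 of 3 libraries above). It was highest in replicate 1 and lowest in replicate 3. The call ended without replicate 1 (adjusted p = 0.187), with a pseudocount of 5 (0.0757), with GENCODE transcript lengths (0.0697) and without the filter on low counts (0.27), in a range of 0.00109 to 0.27 over the alternatives.

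Kcns3 (ENSMUSG00000043673, chromosome 12, 11140203 to 11201057) stood at 7.20, 3.58 and 2.83 TPM, from 385, 174 and 135 counts, with a mean of 4.54 ± 2.34 TPM (limma, adjusted p = 0.0263, 3 of 3 libraries above 1 TPM). It too was highest in replicate 1. Its call ended without replicate 1 (adjusted p = 0.156), with a pseudocount of 5 (0.0696) and without the filter (0.125), in a range of 0.000528 to 0.156. Kcns1 stood at 0, 0 and 6.13 TPM, all of its 110 counts in replicate 3, and Kcns2 had 5 counts in replicate 2 alone. Kcnf1 had 18, 0 and 7 counts, Kcng4 had 26 counts in replicate 1 alone, and Kcng1, Kcng2, Kcng3 and Kcnv2 had none.

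The Kcnip genes encode calcium-binding proteins that join Kcnd channels, and 1 of the 4 was called. Kcnip4 (ENSMUSG00000029088, chromosome 5, 48546844 to 49682249) stood at 3.01, 7.36 and 7.28 TPM, from 184, 410 and 397 counts, with a mean of 5.88 ± 2.49 TPM (limma, adjusted p = 0.0105, 3 of 3 libraries above 1 TPM). Replicates 2 and 3 were close and replicate 1 was lower. Without the filter the call ended (adjusted p = 0.0996, range 0.000195 to 0.0996), and with GENCODE transcript lengths the mean was 12.2 ± 5.30 TPM. Kcnip4 spans other listed genes, among them the protein-coding 5730480H06Rik with 431, 197 and 227 counts, and the use of strand in counting is not given in the sources.

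Kcnip3, which also acts as a calcium-dependent repressor of transcription, lay just past the threshold, at 3.90, 2.18 and 4.26 TPM (adjusted p = 0.0511, range 0.00764 to 0.18). It passed with TMM scaling (0.0484) and DESeq2 size factors (0.0488). Kcnip1 stood at 4.78, 0 and 2.95 TPM, from 383, 0 and 211 counts, and Kcnip2 had none. The Kcnip genes summed to 11.7, 9.54 and 14.5 TPM and the Kcnd genes to 1.58, 2.78 and 1.91 TPM, with the Kcnip genes higher in 3 of 3 libraries.

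Of the Kcnab genes, whose proteins bind the inside of Kcna channels, Kcnab1 was called. Kcnab1 (ENSMUSG00000027827, chromosome 3, 64856617 to 65285644) varied little, at 4.24, 3.51 and 4.51 TPM from 459, 346 and 436 counts, with a mean of 4.09 ± 0.519 TPM (limma, adjusted p = 0.0194, 3 of 3 libraries above 1 TPM). The call ended when any 1 library was left out (adjusted p = 0.0902 without replicate 1, 0.0586 without replicate 2, 0.0607 without replicate 3) and with a pseudocount of 5 (0.0566), in a range of 1.61e-05 to 0.0902. With GENCODE transcript lengths, its mean was 10.8 ± 1.28 TPM.

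Kcnab3 stood at 1.75, 0.626 and 8.06 TPM and Kcnab2 at 0.715, 1.02 and 2.59 TPM. All 3 Kcnab genes were highest in replicate 3. Kcnab2 has an implied length of 20903 bp, and it passed in CPM (adjusted p = 0.00239) and with GENCODE transcript lengths (0.00327), in a range of 0.00239 to 1. The Kcnab genes summed to 6.70, 5.15 and 15.2 TPM and the Kcna genes without Kcna10 to 6.89, 8.05 and 7.28 TPM. Kcnab was higher in 1 of 3 libraries, but these sums depend on gene length. With GENCODE transcript lengths the means of Kcnab1, Kcnab2 and Kcnab3 were 10.8, 11.5 and 2.49 TPM. The highest Kcna genes after Kcna10 were then Kcna2, Kcna4 and Kcna1, at 2.18, 2.11 and 1.37 TPM.

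**Figure D3:**
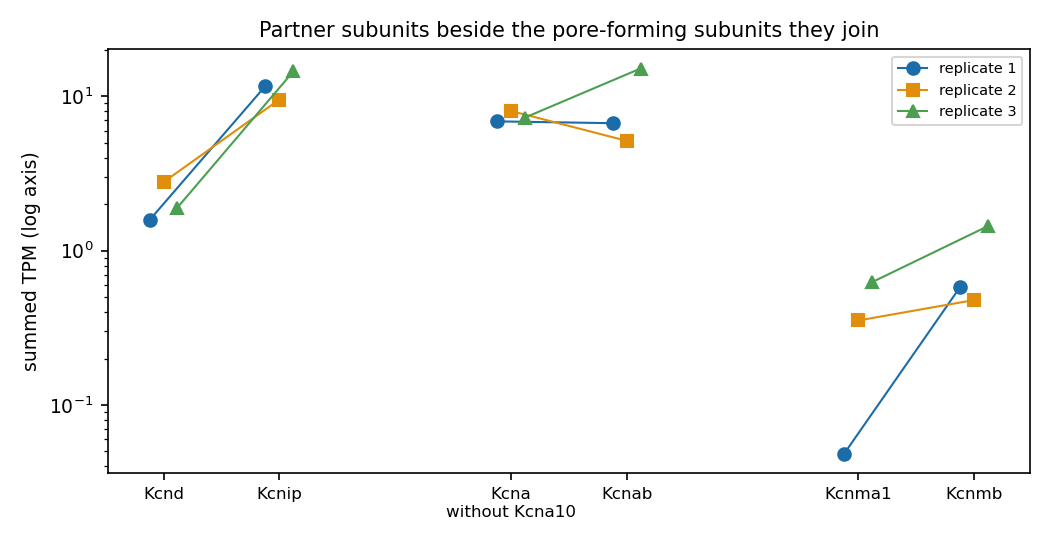
Summed TPM (log axis) of pore-forming subfamilies and of the partner subunits they are known to join, with 1 symbol and line per library. Kcnip and Kcnmb lie above Kcnd and Kcnma1 in 3 of 3 libraries, and Kcnab lies above Kcna without Kcna10 in replicate 3 alone. The Kcnab and Kcna sums depend on gene length. The Kcnmb and Kcnma1 sums are low, with means of 0.834 and 0.342 TPM, and depend on gene length too. With GENCODE transcript lengths the mean of Kcnma1 was 1.21 TPM, beside 1.05 TPM for Kcnmb4 and 0.282 TPM for Kcnmb2.

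The other auxiliary genes were uneven between libraries. Kcne2, a single-pass subunit that joins Kcnq and Kcnh channels, stood at 7.93, 1.34 and 0 TPM, from 104, 16 and 0 counts. Kcnrg, which encodes a regulator of channel assembly, stood at 4.24, 0.124 and 0 TPM. Both were highest in replicate 1 and had no count in replicate 3. Kcne3 had 0, 2 and 30 counts, Kcne4 had 14 counts in replicate 3 alone, and Kcne1l had none.

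Tandem-pore channels (Kcnk) carry the steady leak current that sets the resting voltage, and 2 of the 14 members were called. Kcnk1 (ENSMUSG00000033998, chromosome 8, 126721909 to 126757424) was second after Kcna10 among all members, at 40.5, 28.1 and 43.9 TPM from 946, 598 and 914 counts. The mean was 37.5 ± 8.29 TPM (limma, adjusted p = 3.75e-05, 3 of 3 libraries above 1 TPM). Its highest library lay below the lowest library of Kcna10, and its lowest lay above the highest library of every other member.

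Kcnk2 (ENSMUSG00000037624, chromosome 1, 188940127 to 189134470), a leak channel that responds to stretch and lipids, stood at 4.06, 6.42 and 5.37 TPM from 261, 376 and 308 counts, with a mean of 5.28 ± 1.19 TPM (limma, adjusted p = 0.00755, 3 of 3 libraries above 1 TPM). With GENCODE transcript lengths its mean was 17.5 ± 4.26 TPM, since the transcript used there is 1548 bp long and the length implied by its counts and FPKM is 8664 bp. The listed pseudogene Pdcd5-ps overlaps it and had 2681, 2339 and 3457 counts. Kcna10, Kcnk1 and Kcnk2 were the members called in the test and in every alternative tried.

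Kcnk5, a leak channel that opens at alkaline pH, stood at 0.545, 0.319 and 4.68 TPM. Kcnk13, a channel known from microglia, stood at 2.23, 1.74 and 0.462 TPM, and Kcnk6 at 0.66, 0.0659 and 1.55 TPM. Kcnk13 was lowest in replicate 3, while Kcnk5 and Kcnk6 were highest there. Kcnk3 and Kcnk7 had 61 and 27 counts in replicate 3 and none elsewhere, and Kcnk9 had 83, 0 and 7 counts. Kcnk10 and Kcnk12 had at most 4 counts in a library, and Kcnk4, Kcnk15, Kcnk16 and Kcnk18 had none.

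None of the 12 Kcnq and Kcnh members was called (1 had an unadjusted p under 0.05, and edgeR's test called 1). Kcnq3, which forms part of a neuronal brake on firing, stood at 0.724, 0.275 and 2.21 TPM. Kcnq5 had 1, 0 and 75 counts.

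The Kcnh genes encode voltage-gated channels with slow or unusual gating. Kcnh7 stood at 0.473, 2.84 and 2.04 TPM and passed in CPM alone (adjusted p = 0.00452, range 0.00452 to 0.904). Kcnh8 stood at 1.26, 0.249 and 1.52 TPM and Kcnh2, the channel of the repolarising heart, at 0.574, 0.327 and 1.43 TPM. Kcnh6 stayed under 1 TPM in every library, Kcnh1 had 0, 7 and 46 counts, Kcnh4 had 2 counts in replicate 2 alone, and Kcnh3 and Kcnh5 had none.

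None of the 12 inward rectifier members (Kcnj) was called, none had an unadjusted p under 0.05, and edgeR's test called 0. These channels pass potassium more easily into the cell than out of it. Kcnj2 was at 1 TPM or more in every library, at 2.45, 1.12 and 1.11 TPM. Kcnj11, the pore of the ATP-sensitive channel of pancreas and neurons, stood at 0.0494, 1.11 and 1.69 TPM. Kcnj8, the pore of the same kind of channel in vessel walls, had 93 counts in replicate 1 (2.87 TPM) and none in replicates 2 and 3. Kcnj3, a channel opened by G proteins, stood at 1.45, 0.455 and 0.0703 TPM. Kcnj8 and Kcnj3 were highest in replicate 1, and Kcnj11 was lowest there. Kcnj1, Kcnj6, Kcnj12 and Kcnj15 were each counted in 1 library, and Kcnj4, Kcnj5, Kcnj9 and Kcnj14 in none. By contrast, the 3 inward rectifier genes set apart with endolymph secretion were all called, Kcnj13 at 243 ± 141 TPM, Kcnj16 at 16.1 ± 9.04 TPM and Kcnj10 at 9.14 ± 1.70 TPM. The other genes set apart, Kcne1 and Kcnq1, which form the potassium exit channel of dark cells together, were called too, at 80.9 ± 53.9 and 13.6 ± 6.11 TPM.

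None of the 8 calcium- or sodium-activated members was called, none had an unadjusted p under 0.05, and edgeR's test called 0. Kcnma1, the large-conductance channel opened by calcium and voltage together, stood at 0.0485, 0.353 and 0.626 TPM, from 8, 53 and 92 counts on an implied length of 22223 bp. Kcnn2, the small-conductance channel of hair cells and neurons, stood at 1.65, 2.08 and 0.707 TPM and passed in CPM (adjusted p = 0.0146, range 0.0146 to 0.793). Kcnn4, the calcium-activated channel of leukocytes and red cells, stood at 0.762, 0.306 and 1.94 TPM. Kcnn2 was lowest in replicate 3 and Kcnn4 highest there. Kcnn1 had 0, 3 and 35 counts, and Kcnn3 had 16 counts in replicate 2 alone.

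The sodium-activated Kcnt1 and Kcnt2 had no count in replicate 1, and stood at 0.354 and 1.31 TPM in replicate 2 and at 0.777 and 0.177 TPM in replicate 3. Kcnu1, a channel of sperm, had 19 counts in replicate 2 alone. Of the Kcnmb genes, whose proteins join Kcnma1, Kcnmb4 stood at 0.519, 0.456 and 0.893 TPM, Kcnmb2 had 3, 1 and 24 counts, and Kcnmb1 and Kcnmb3 had none. Kcnmb1 is the subunit of smooth muscle.

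**Figure D4:**
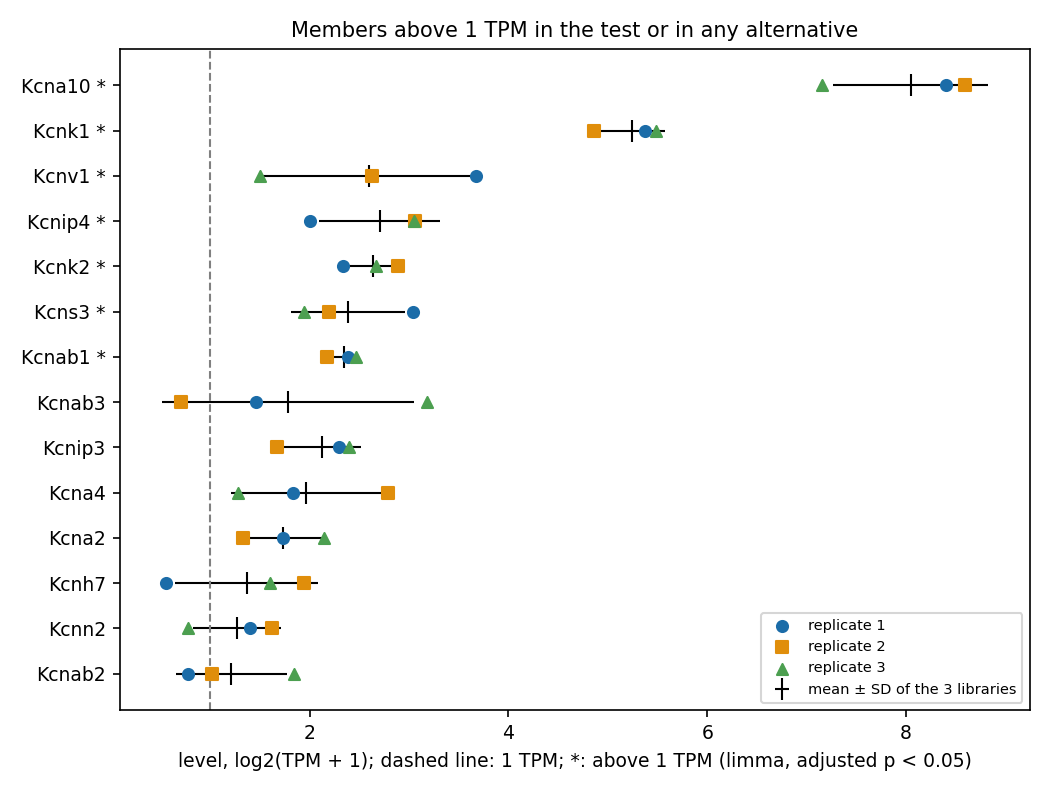
Level of 14 members that were called in the test or in any alternative, as log2(TPM + 1) on the horizontal axis, with 1 symbol per library, the mean as a tick and the SD as a line. The 7 called members are marked by asterisks, and after Kcna10 and Kcnk1 the means of the other 5 lie between 4.09 and 6.25 TPM, where libraries of neighbouring genes overlap.

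Below Kcnk1, the order of the members was not resolved. The means of Kcnv1, Kcnip4, Kcnk2, Kcns3 and Kcnab1 lay at 6.25, 5.88, 5.28, 4.54 and 4.09 TPM, and the ranges of each neighbouring pair overlapped between libraries. Members with a mean of 1 TPM or more, 28 in number, had a median SD between libraries of 0.64 on the log2(TPM + 1) scale, beside 0.56 for the 12575 protein-coding genes with such a mean. The 6 members with the largest SD were Kcnc1 (1.72), Kcns1 (1.64), Kcne2 (1.59), Kcnrg (1.33), Kcnip1 (1.33) and Kcnab3 (1.27).

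Channel genes listed under hair cells, leukocytes and vessel walls were mostly low, though some, such as Kcnn2 and Kcnn4, are known from other cells too. Of 5 known from hair cells, among them Kcna10, Kcnma1, Kcnn2 and Kcnj2, Kcna10 was called, and edgeR's test called 2. None of the 5 known from leukocytes (Kcna3, Kcnn4, Kcnk6, Kcnk13 and Kcne3) was called, by limma at an unadjusted p under 0.05 or by edgeR, and they summed to 4.01, 2.55 and 4.90 TPM. The 12 macrophage markers summed to 8964, 5755 and 6539 TPM in the same libraries. None of the 3 known from vessel walls (Kcnj8, Kcna5 and Kcnmb1) was called either, with 0 at an unadjusted p under 0.05 and 0 by edgeR. In 2 of these 3, Kcna5 and Kcnmb1, no library had a count.

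None of 9 genes for partners of potassium channels was called, with 0 at an unadjusted p under 0.05 and 0 by edgeR. Lrrc38, a partner of Kcnma1, was highest at 1.16, 0.955 and 3.32 TPM. Amigo1, a partner of Kcnb channels, stood at 0.571 to 1.18 TPM, and Dpp6 and Dpp10, partners of Kcnd channels, had means of 0.723 ± 0.712 and 0.811 ± 0.553 TPM. The sulfonylurea receptors Abcc8 and Abcc9, which complete the ATP-sensitive channels, had means of 0.304 ± 0.432 and 0.421 ± 0.216 TPM. The other 3, Lrrc26, Lrrc52 and Lrrc55, had no count.

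Of 7 potassium-permeable channels with other names, 3 were called, beside 50.5% of protein-coding genes tested. In edgeR's test, in CPM and without the mean-variance trend, 4 of the 7 were called. The 3 called in the main test are channels of internal membranes. Tmem175, a potassium channel of lysosomes, stood between 8.78 and 22.3 TPM (mean 15.3 ± 6.76, limma, adjusted p = 0.000621). Tmem38a and Tmem38b, channels of the endoplasmic reticulum, stood at 14.6 ± 9.27 and 11.3 ± 3.58 TPM (adjusted p = 0.00136 and 0.000732). All 3 were above 1 TPM in 3 of 3 libraries. Of the pacemaker channels of the surface membrane, Hcn2, Hcn3 and Hcn4 had means of 0.936 ± 1.08, 0.328 ± 0.567 and 0.502 ± 0.870 TPM.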

How the data were processed

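The deposited table gives raw counts and FPKM per gene in each library, per the file headers. HISAT2, StringTie, edgeR and the build GRCm39 stand in the submitters' processing notes, without versions or roles. FPKM was rescaled to the same total per library (TPM), and log2(TPM + 1) was tested against 1 TPM with limma 3.58.1 (R 4.3.3; intercept only, mean-variance trend, one-sided) over the 27265 genes counted in 1 or more libraries, Benjamini-Hochberg adjusted, threshold 0.05. No 2 groups exist, so edgeR 4.0.16 (quasi-likelihood test of the counts against 1 TPM) was an alternative. Its one-sided statistic was put together from edgeR's fit, since edgeR does not test the only term of a model. Other alternatives were DESeq2 1.42.0 size factors, other pseudocounts, filters and units, and leaving out each library. In CPM the level tested was 1 CPM, not 1 TPM. Scripts were tested on simulated data. The members and lists were chosen with earlier results of these data known. Named were all called members, the 2 highest of each subfamily, the 6 with the largest SD, members with no count, members whose call changed and called genes of related lists. Some genes that meet this rule are not reported here. Other members named were chosen after their values were seen. The gene length implied by the deposited counts and FPKM exceeded the GENCODE M21 transcript with the longest coding sequence by a median ratio of 1.67 for members with a count and 1.96 for protein-coding genes with a count.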

Additional observations from a re-analysis of the deposited data

Results flagged for a closer look

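Besides the protein-coding members, the table lists 5 noncoding genes whose symbols start with Kcn, and 1 of them, Kcnq1ot1, had more than 3 counts in every library, above the limit that a count of 0 allows. Kcnq1ot1 is the imprinted transcript that overlaps Kcnq1 on the other strand. It had 821, 299 and 696 counts in replicates 1, 2 and 3, a mean of 0.825 ± 0.351 TPM. The use of strand in counting is not given in the sources, so its reads and those of Kcnq1 cannot be told apart.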

How the results depend on the processing

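Among 47 single genes tried under up to 13 alternatives, no gene called in the main test fell below 1 TPM in its difference. Genes not called there were not checked for this, and some changed sign. For Kcnc1 the difference from 1 TPM on the log2(TPM + 1) scale was 0.135, and -0.855 without replicate 3. The count of members above 1 TPM was 7. In CPM without gene length the level tested was 1 CPM, not 1 TPM, and 14 members passed. The count above 1 TPM was 12 in edgeR's test and 11 among genes counted in all 3 libraries. It was 4 without a filter, 4 with a pseudocount of 5, and 4 to 6 when 1 library was left out. The lowest, 4, came without replicate 1, where Kcnab1, Kcns3 and Kcnv1 lost their calls. The number of subfamilies with a called member was 6. It was 3 without a filter, 3 with a pseudocount of 5, and 3 to 5 when 1 library was left out. The count over partner genes and channels of other names was 3, and 6 in CPM, where Amigo1 and Dpp10 were among those added. The median SD of members was 0.644, and 1.05 and 0.282 with pseudocounts of 0.1 and 5. The cause of these shifts was not tested. GENCODE transcript lengths were chosen as an alternative after seeing the data. A count in every library was held by 36 members, by 32 at a minimum of 3 counts and by 24 at 10. Depth limits what can be said of low members. For counting error only, a count of 0 allows up to 0.213 CPM in the shallowest library. Spread between libraries can exceed this limit, as for Kcnip1 with 383, 0 and 211 counts in replicates 1, 2 and 3. The cause of this spread was not tested.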
